A study of Mus musculus with 3 samples.

Results

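Cytochrome P450 enzymes are haem proteins that insert oxygen into foreign compounds, fatty acids, sterols, retinoids and vitamin D. Enzymes of families 1 to 3 carry out the main oxidation of drugs and dietary chemicals, and in the small intestine they sit in the endoplasmic reticulum of absorptive enterocytes. Several are switched on by ligand-activated receptors, among them the pregnane X receptor (gene Nr1i2), the constitutive androstane receptor (Nr1i3), the aryl hydrocarbon receptor (Ahr) and the fatty acid receptor PPARalpha (Ppara). The genes described here were all those whose symbol in the array annotation begins with Cyp and a family number, which gave 95 genes (137 features) of 20738 named genes (31465 features). They fell into family 1 (3 genes), family 2 (46), family 3 (8), family 4 (20) and other families (18).

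RNA of whole proximal jejunum from mice with Sox4, a transcription factor gene, deleted through villin-Cre, which acts in the intestinal epithelium, was set against RNA of wild-type proximal jejunum on 3 arrays with 2 dyes. Cy5 marked the RNA of knockout mice throughout and Cy3 that of wild-type mice, with 1 knockout sample per array. Age, sex and strain are not in the labels used here, nor is the make-up of the wild-type RNA, which may have been pooled. The p-values measure the spread between these arrays. If the wild-type RNA was a pool, they leave out how far wild-type mice vary. As no dyes were swapped, a dye effect of a gene and its genotype effect cannot be told apart. Each value is a log2 ratio, knockout divided by wild type, read in that direction from the dyes in the labels, and all signs would turn if the deposited ratios ran the other way. The table holds ratios and no intensities, so it shows neither which P450 genes were expressed well above background nor whether the tissue's defining markers were present, and in whole tissue fewer cells of a type and less RNA per cell cannot be told apart.

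Sox4 itself measured -0.66, 0.18 and -0.46 on arrays 1, 2 and 3 (mean -0.31 ± 0.44, SD, n = 3; limma adjusted p = 0.332), so it checks the labels weakly, above all on array 2. The Y-linked gene Eif2s3y (-7.28 ± 0.25) and the fat gene Adipoq (-4.68 ± 0.41) fell and Xist (1.71 ± 0.18) rose in the same RNA. With Eif2s3y lower and Xist higher, an effect of sex and one of genotype cannot be told apart in any gene below.

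P450 genes leaned towards lower ratios in Sox4 knockout jejunum, and the 3 that passed the test belong to the Cyp2c and Cyp3a subfamilies, which oxidise arachidonic acid, drugs and steroids. With limma's test, adjusted over all genes, Cyp2c55, Cyp2c38 and Cyp3a25 fell and no P450 gene rose. These were 3 of 95 lower (3.16%), where 0.222% of all genes passed as lower, and 0 of 95 higher, where 0.106% of all genes passed. At an adjusted p under 0.1, 20 of 95 were lower (5.29% of all genes) and 4 of 95 higher (4.78% of all genes). Before adjustment, 37 of 95 had p under 0.05 as lower (14.3% of all genes) and 10 of 95 as higher (12% of all genes). Below 0 on every array were 45 of the 95 (47.4%), where 27.3% of all genes were, and above 0 on every array were 21 (22.1%), where 23.2% of all genes were. Cyp2c and Cyp3a held 18 of the 45 genes below 0 on every array, and the 74 P450 genes outside them held 27. The median of the 21 Cyp2c and Cyp3a genes was -0.81 and that of the other 74 was -0.03, with no test of the difference. The median ratio of the P450 genes was -0.245, with -0.245, -0.237 and -0.13 on arrays 1, 2 and 3, beside a median of -0.03 over all genes. The calls rest on all arrays together. None of the 3 genes passed with any 2 arrays, where the count of P450 genes past the threshold was 0 without array 1, 1 without array 2 (Cyp1a1, which is none of the 3) and 0 without array 3.

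**Figure D1:**
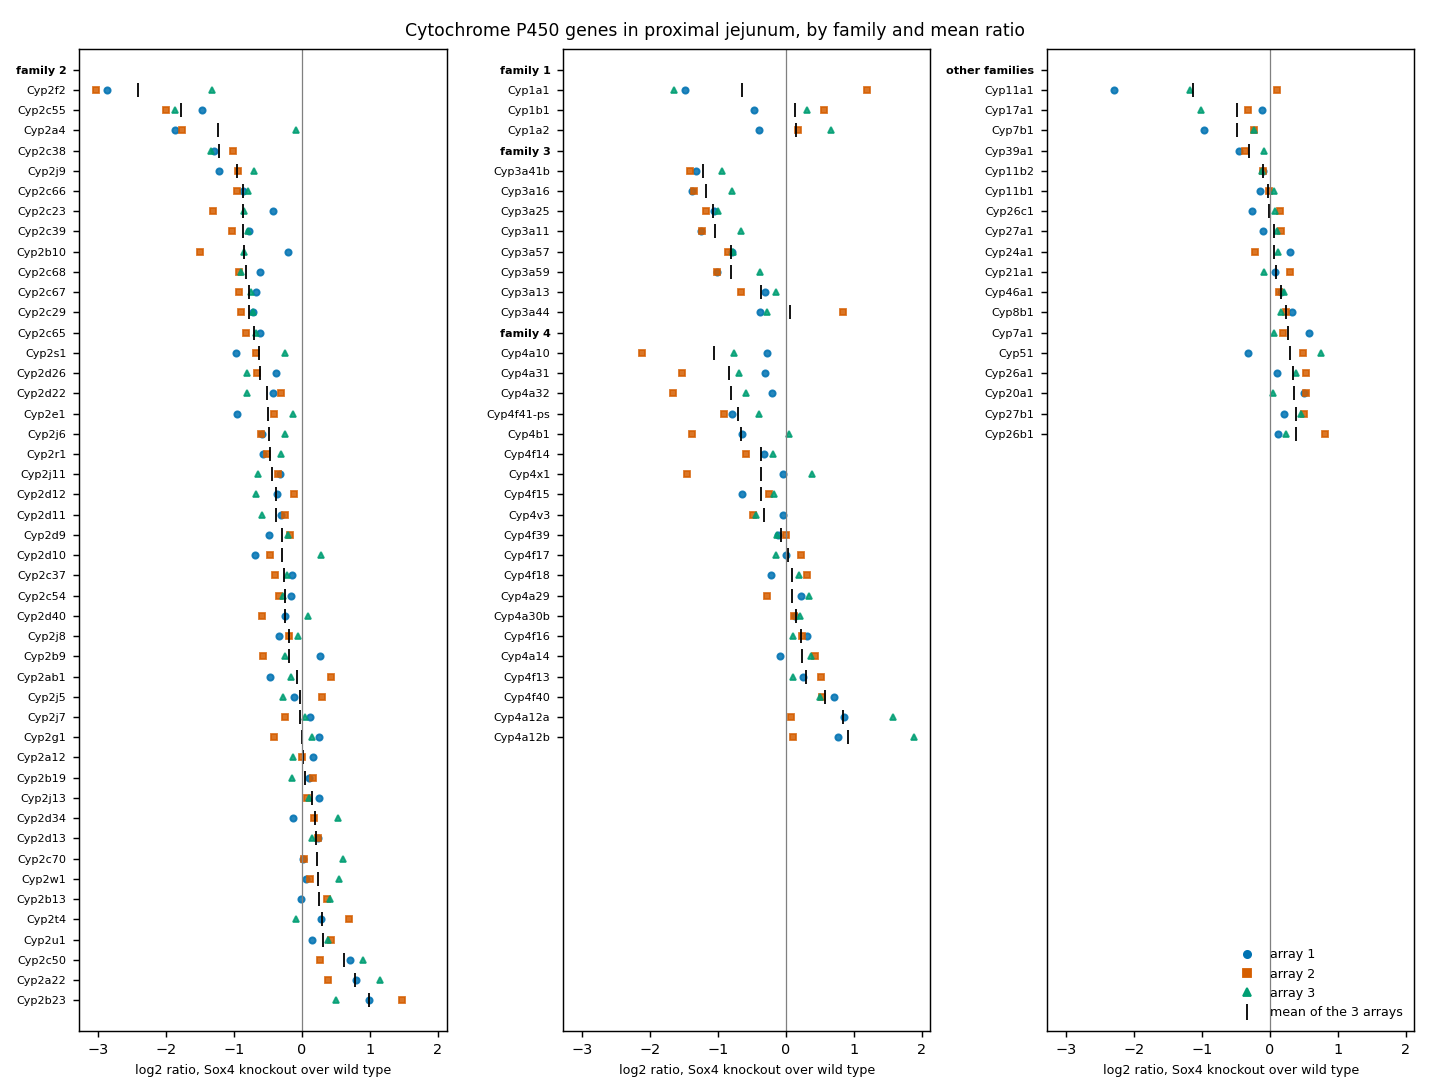
Log2 ratio of knockout over wild type (x axis) for each of the 95 P450 genes, in panels by family and ordered by mean; coloured symbols are arrays 1 to 3 and the black bar is their mean. Most Cyp2c and Cyp3a genes lie left of 0 with their 3 symbols close together, while Cyp1a1, Cyp11a1 and several Cyp4a genes spread widely over the arrays.

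Cyp2c55, an arachidonic acid hydroxylase known from the mouse gut, had ratios of -1.47, -2.01 and -1.87. Every array lay well below 0, and the mean was -1.78 ± 0.28 (SD, n = 3), a 3.43-fold lower level in the knockout (95% interval -2.14 to -1.42, limma adjusted p = 0.0303). It was the 42nd lowest of 20738 genes. Cyp2c38, an arachidonic acid epoxygenase, had -1.30, -1.02 and -1.33 with a mean of -1.22 ± 0.17 (2.32-fold lower, adjusted p = 0.0461). Its features differed in size and not in sign, with means of -1.60 and -0.83. Cyp3a25, a member of the drug- and steroid-oxidising subfamily, had -1.07, -1.17 and -1.0, which differed little between arrays (mean -1.08 ± 0.09, 2.11-fold lower, adjusted p = 0.0462). With 2 arrays the adjusted p of these genes ran from 0.0577 to 0.205 for Cyp2c55, from 0.0586 to 0.234 for Cyp2c38 and from 0.0757 to 0.234 for Cyp3a25, while their means stayed between -1.94 and -1.03.

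In the Cyp2c subfamily, 2 of 13 genes passed as lower and none as higher. Of its genes, 11 were below 0 on every array (27.3% of all genes) and the other 2 above 0 on every array (23.2% of all genes). Its median was -0.79, with -0.62, -0.93 and -0.75 on arrays 1, 2 and 3. Position within the gene cluster went with the ratio, as the RefSeq gene order showed. The 8 genes from one end, in the order Cyp2c55, Cyp2c65, Cyp2c66, Cyp2c29, Cyp2c39, Cyp2c38, Cyp2c67 and Cyp2c68, had means from -1.78 to -0.71, and each was below -0.6 on every array. The 4 measured genes that follow had smaller or opposite values, with -0.26 ± 0.13 for Cyp2c37, -0.26 ± 0.09 for Cyp2c54, 0.62 ± 0.33 for Cyp2c50 and 0.22 ± 0.34 for Cyp2c70. The means of Cyp2c37 and Cyp2c54 average features of opposite sign, with -0.60 and 0.08 for Cyp2c37 and -0.61, -0.49 and 0.33 for Cyp2c54, so their contrast with the first 8 genes rests on 1 discordant feature each. Cyp2c70, which makes muricholic acids from chenodeoxycholic acid in mice, had 0.02, 0.03 and 0.60, so its value rests mainly on array 3.

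Among the genes of the first stretch that missed the threshold, Cyp2c66 had -0.87, -0.96 and -0.80 (adjusted p = 0.0543), and Cyp2c65 had -0.61, -0.82 and -0.68 (adjusted p = 0.0646). Cyp2c39, which can hydroxylate retinoic acid, had -0.77, -1.03 and -0.79 (adjusted p = 0.0600). Their arrays agree in sign and nearly in size. Cyp2c29, an epoxygenase, was printed on 10 features, which gave a view of the error within an array. On each array the SD among its 10 features was between 0.04 and 0.05, while the SD between arrays was 0.10 (means -0.72, -0.90 and -0.72, adjusted p = 0.0625). Cyp2c50, one of the arachidonic acid P450s, had 0.70, 0.27 and 0.90 and lay above 0 on every array, without passing (adjusted p = 0.0965). Outside the cluster, Cyp2c23 (Cyp2c44 in the array annotation), an epoxygenase, had -0.43, -1.31 and -0.85 with the same sign on every array (adjusted p = 0.0828).

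**Figure D2:**
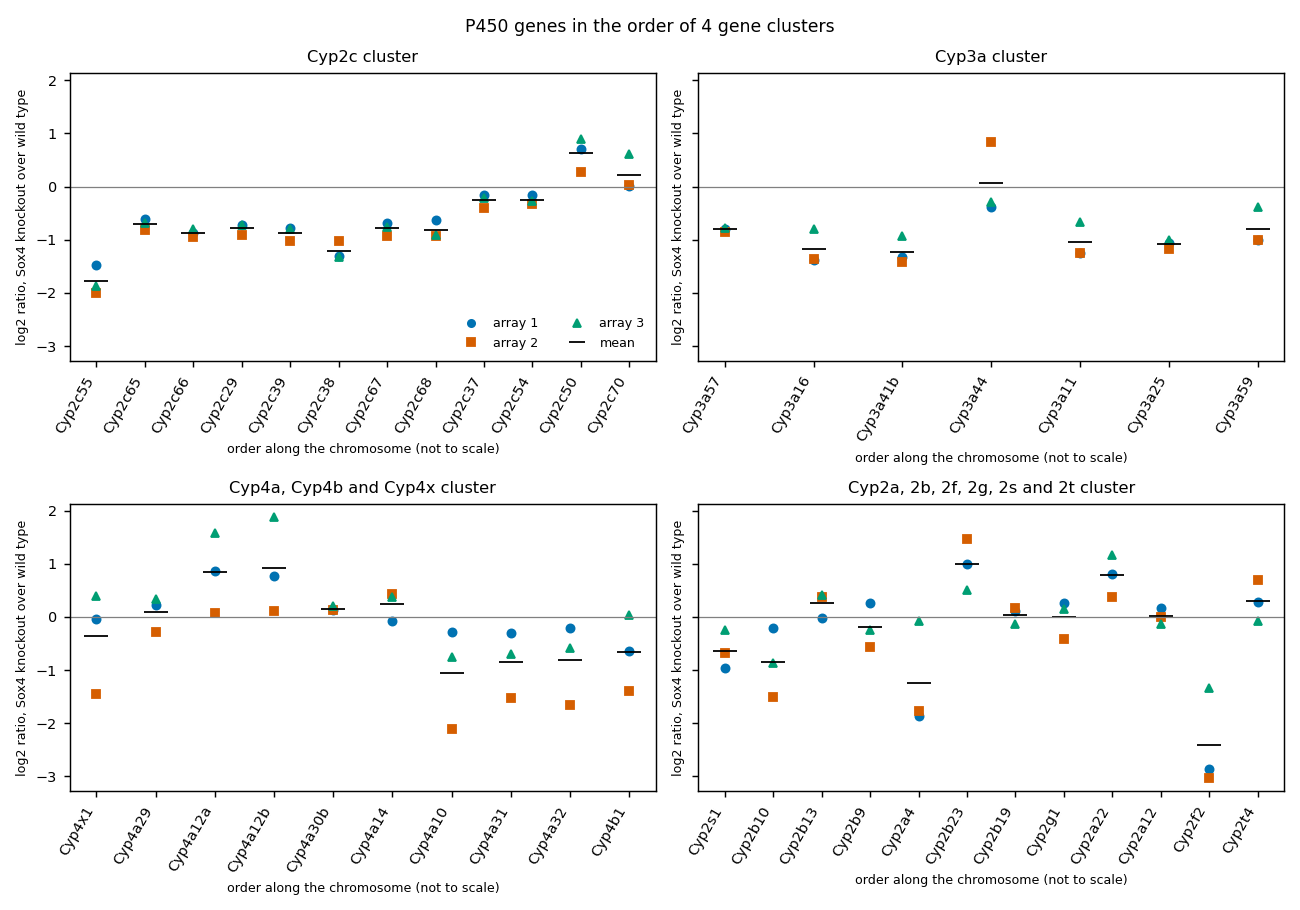
Log2 ratio of knockout over wild type (y axis) for the measured P450 genes of 4 gene clusters, placed on the x axis in their RefSeq order and not to scale; symbols are arrays 1 to 3 and the black dash is their mean. The 8 genes from Cyp2c55 to Cyp2c68 lie below 0 on every array and Cyp2c50 above it, Cyp3a44 differs from its neighbours mainly on array 2, and the 3 genes Cyp4a10, Cyp4a31 and Cyp4a32 are lowest on array 2.

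Family 3 held 8 Cyp3a genes, of which 1 passed as lower (0.222% of all genes). Of its genes, 7 were below 0 on every array (27.3% of all genes). As many had an unadjusted p under 0.05 as lower (14.3% of all genes). Its median of -0.93 was the lowest of the family groups, with -1.04, -1.09 and -0.72 on the arrays. Cyp3a11, the PXR-induced mouse gene often set beside human CYP3A4, had -1.24, -1.24 and -0.66 (mean -1.05 ± 0.33, adjusted p = 0.0634). Its 2 features averaged -1.32 and -0.77, and the lower one passed when every feature was tested on its own (adjusted p = 0.0497). Cyp3a41b had -1.32, -1.42 and -0.94 (adjusted p = 0.0529) and Cyp3a16 had -1.39, -1.36 and -0.79 (adjusted p = 0.0576), both weakest on array 3. Cyp3a57 was steadier, at -0.79, -0.85 and -0.78 (adjusted p = 0.0576), and Cyp3a59 had -1.01, -1.01 and -0.38 (adjusted p = 0.0797). Cyp3a13, which lies apart from the others on the same chromosome, had the smallest of the negative means, -0.37 ± 0.26 (adjusted p = 0.175). Cyp3a44 was the exception, with -0.38, 0.84 and -0.28, so array 2 alone lay above 0 (mean 0.06 ± 0.68). Probe sequences were not used here, and Cyp3a and Cyp2c genes are close copies of each other, so signal shared between copies cannot be separated by gene.

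Promoter windows of these subfamilies are shown because neighbouring copies differed in their ratios. RefSeq sequences of build GRCm38.p6, from 250 bases before to 50 bases after the gene start, matched 70 of the 95 P450 genes. The printed part is the 250 bases before the start, 5′ to 3′ on the gene's strand, for the 3 genes that fell (Cyp2c55, Cyp2c38 and Cyp3a25), for Cyp2c66, Cyp2c50 and Cyp2c70 from along the Cyp2c cluster, and for the like copies Cyp3a16 and Cyp3a44. Capitals mark CAAAGT or its reverse complement ACTTTG, the core letters of sites for HNF4, a nuclear receptor of gut and liver epithelium. The windows lie at chr19:39006769-39007018 (+), chr19:39463076-39463325 (-), chr19:39113648-39113897 (+), chr19:40089429-40089678 (+), chr19:40187287-40187536 (-), chr5:146009619-146009868 (-), chr5:145469724-145469973 (-) and chr5:145805875-145806124 (-).
Cyp2c55: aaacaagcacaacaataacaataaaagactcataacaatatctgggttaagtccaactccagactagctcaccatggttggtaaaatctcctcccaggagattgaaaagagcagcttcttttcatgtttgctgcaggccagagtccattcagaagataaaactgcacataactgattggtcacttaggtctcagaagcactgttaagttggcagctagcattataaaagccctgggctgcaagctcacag
Cyp2c38: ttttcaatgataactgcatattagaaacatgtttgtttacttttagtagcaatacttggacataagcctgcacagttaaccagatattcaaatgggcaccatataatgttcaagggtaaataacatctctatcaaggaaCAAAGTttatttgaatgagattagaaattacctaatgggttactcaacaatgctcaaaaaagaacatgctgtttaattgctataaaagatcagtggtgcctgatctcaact
Cyp2c66: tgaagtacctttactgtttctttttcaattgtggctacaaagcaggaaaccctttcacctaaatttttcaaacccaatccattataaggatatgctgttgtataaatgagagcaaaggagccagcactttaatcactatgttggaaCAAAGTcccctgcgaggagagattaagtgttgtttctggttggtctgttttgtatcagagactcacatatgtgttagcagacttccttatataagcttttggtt
Cyp2c50: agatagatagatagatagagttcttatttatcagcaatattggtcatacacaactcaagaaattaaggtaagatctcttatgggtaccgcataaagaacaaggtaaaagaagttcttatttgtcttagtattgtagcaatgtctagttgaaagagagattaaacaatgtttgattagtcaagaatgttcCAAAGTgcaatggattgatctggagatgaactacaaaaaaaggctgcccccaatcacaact
Cyp2c70: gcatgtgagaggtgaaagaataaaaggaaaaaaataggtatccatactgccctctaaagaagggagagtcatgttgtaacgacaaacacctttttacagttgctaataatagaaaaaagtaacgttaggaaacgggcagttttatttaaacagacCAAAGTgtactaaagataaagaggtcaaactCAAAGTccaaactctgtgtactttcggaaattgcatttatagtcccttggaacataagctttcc
Cyp3a25: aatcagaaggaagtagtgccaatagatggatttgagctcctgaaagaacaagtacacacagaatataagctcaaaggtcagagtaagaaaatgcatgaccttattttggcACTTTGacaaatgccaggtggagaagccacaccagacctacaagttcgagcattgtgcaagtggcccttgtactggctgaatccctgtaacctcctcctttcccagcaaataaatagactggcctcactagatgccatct
Cyp3a16: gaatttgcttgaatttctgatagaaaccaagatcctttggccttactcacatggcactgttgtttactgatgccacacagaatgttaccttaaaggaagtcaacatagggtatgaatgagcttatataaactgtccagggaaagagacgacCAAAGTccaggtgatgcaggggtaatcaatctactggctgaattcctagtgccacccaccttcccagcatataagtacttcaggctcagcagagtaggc
Cyp3a44: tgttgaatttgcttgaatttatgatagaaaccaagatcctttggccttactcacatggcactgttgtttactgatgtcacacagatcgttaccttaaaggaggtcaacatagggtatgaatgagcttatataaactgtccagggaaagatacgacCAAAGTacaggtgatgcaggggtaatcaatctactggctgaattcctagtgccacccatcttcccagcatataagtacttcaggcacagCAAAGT

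The letters CAAAGT, searched on both strands of the full windows, were found in 32 of 70 P450 genes (45.7%) and in 16.1% of all 27025 genes with a window. They stood in 10 of 11 Cyp2c windows, with Cyp2c55 the exception, and in 7 of 8 Cyp3a windows. P450 genes with the letters had a median ratio of -0.66, and those without had -0.16. Outside Cyp2c and Cyp3a, the 15 of 51 genes with the letters had a median of 0.09 and the 36 without had -0.06. Cyp2c50 and Cyp2c70 hold the letters and were above 0. The SOX-type letters AACAAT were found in 7.14% of P450 genes and 12.2% of all genes, and AACAAAG, which can overlap CAAAGT by its last letters, in 14.3% and 6.68%. AACAAT stood in 5 windows, those of Cyp2c55, Cyp2c38, Cyp2c65, Cyp2c50 and Cyp1b1, with a median ratio of -0.71, beside -0.26 for the 65 windows without it. For AACAAAG the medians were -0.50 with the letters and -0.22 without. Cyp2c held 4 of the 5 AACAAT windows and 4 of the 10 AACAAAG windows, and these medians were not split by subfamily. For AGGTCA and AGTTCA, cores of other nuclear receptor sites, the shares were 27.1% and 14.3% of P450 genes, beside 18.1% and 15.7% of all genes. GCGTG, the core of aryl hydrocarbon receptor sites, was in 22.9% and 35.2%, with medians of -0.07 with the letters and -0.29 without. The copies are related by descent, so their windows are not independent. Over the 250 bases, Cyp3a44 matched Cyp3a41b at 94.8% and Cyp3a16 at 92.9% of aligned positions, while their mean ratios were 0.06, -1.22 and -1.18. Cyp3a25 and Cyp3a59 matched at 94.8% and had -1.08 and -0.80. Cyp2c37 and Cyp2c50 matched at 84.3% and had -0.26 and 0.62.

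The rest of family 2 was mixed. Family 2 as a whole, Cyp2c included, had 2 of 46 genes past the threshold as lower and none as higher, and a median of -0.29. On every array 26 were below 0 (27.3% of all genes) and 8 above 0 (23.2% of all genes). Cyp2c held the 2 that passed, 11 of the 26 below 0 and 2 of the 8 above 0. Cyp2f2, known for activating naphthalene in club cells of the mouse lung, had the lowest mean of all P450 genes and the 15th lowest of all genes. Its ratios were -2.86, -3.04 and -1.33 (mean -2.41 ± 0.94, 5.32-fold lower), below 0 on every array but much less so on array 3, and it missed the threshold (adjusted p = 0.0624). Cyp2a4, a testosterone hydroxylase, behaved alike on the arrays, with -1.87, -1.76 and -0.08 (adjusted p = 0.120). Cyp2j9 had -1.22, -0.94 and -0.70 (adjusted p = 0.0632), and its epoxygenase relative Cyp2j6, abundant in mouse small intestine, had -0.59, -0.60 and -0.25 (adjusted p = 0.105). Over 7 Cyp2j genes the median was -0.19, and over 9 Cyp2d genes it was -0.29, with none past the threshold.

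Cyp2b10, the classical target of the constitutive androstane receptor, had -0.21, -1.50 and -0.86, the same sign with a wide spread (adjusted p = 0.118). Cyp2e1, which oxidises ethanol, had -0.96, -0.41 and -0.13 (adjusted p = 0.166), and Cyp2s1, an epithelial P450, had -0.96, -0.68 and -0.25 (adjusted p = 0.1004). The highest P450 mean also stood in family 2. Cyp2b23 had 0.99, 1.47 and 0.50 (mean 0.99 ± 0.49, adjusted p = 0.0774) and Cyp2a22 had 0.80, 0.38 and 1.16 (mean 0.78 ± 0.39, adjusted p = 0.0842), both above 0 on every array. They lie in the same gene cluster as Cyp2f2 and Cyp2a4, whose ratios had the opposite sign. Cyp2u1, a fatty acid hydroxylase, had 0.15, 0.43 and 0.38 (adjusted p = 0.176).

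Family 4 enzymes hydroxylate fatty acids and eicosanoids at the end of the chain. None of its 20 genes passed in either direction, 10 had a mean below 0 and 10 above, and the median was -0.03, as over all genes. The Cyp4a genes, known targets of PPARalpha, split into sets. Cyp4a10 had -0.28, -2.12 and -0.76 (mean -1.05 ± 0.95, adjusted p = 0.142), Cyp4a31 had -0.31, -1.53 and -0.70 (adjusted p = 0.116) and Cyp4a32 had -0.20, -1.66 and -0.58 (adjusted p = 0.155). All 3 were below 0 on every array and lowest on array 2, and they are neighbours. Of the 3 Cyp4a31 features, 1 (-0.43, -0.50 and -0.73) was lowest on array 3 instead. As probe sequences were not used, signal shared between these neighbours cannot be separated by gene. Cyp4a12a, which in mice hydroxylates arachidonic acid and is under androgen control in kidney, had 0.86, 0.08 and 1.58, and its copy Cyp4a12b had 0.77, 0.10 and 1.88. Both were above 0 on every array, near 0 on array 2 and highest on array 3 (adjusted p = 0.146 and 0.163). Cyp4a14, also a PPARalpha target, had -0.08, 0.44 and 0.37, so it did not share the pattern of Cyp4a10.

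Of the Cyp4f genes, which inactivate leukotrienes and other eicosanoids, Cyp4f14 had -0.32, -0.59 and -0.20 (adjusted p = 0.155). Cyp4f40 had 0.71, 0.53 and 0.50, a narrow range above 0 (mean 0.58 ± 0.12, adjusted p = 0.0764), and the pseudogene Cyp4f41-ps had -0.80, -0.92 and -0.39 (adjusted p = 0.0793). Cyp4b1 had -0.65, -1.39 and 0.04, and Cyp4x1 had -0.04, -1.46 and 0.39, both lowest on array 2.

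Family 1, the targets of the aryl hydrocarbon receptor, showed no common direction. Cyp1a1 had -1.49, 1.19 and -1.65, strongly lower on arrays 1 and 3 and higher on array 2 (mean -0.65 ± 1.59, adjusted p = 0.493). Without array 2 its mean was -1.57 and it passed the threshold (adjusted p = 0.0480). Its SD was the 54th highest of all genes and the highest among P450 genes. Cyp1a2 had -0.40, 0.17 and 0.66 and Cyp1b1 had -0.47, 0.56 and 0.31, with no array order shared by the 3 genes. Other targets of the receptor did not follow Cyp1a1. Of 7 measured, none passed, 5 were below 0 on every array (27.3% of all genes), and Tiparp, a polymerase that restrains the receptor, had -0.41, -0.38 and -0.64.

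**Figure D3:**
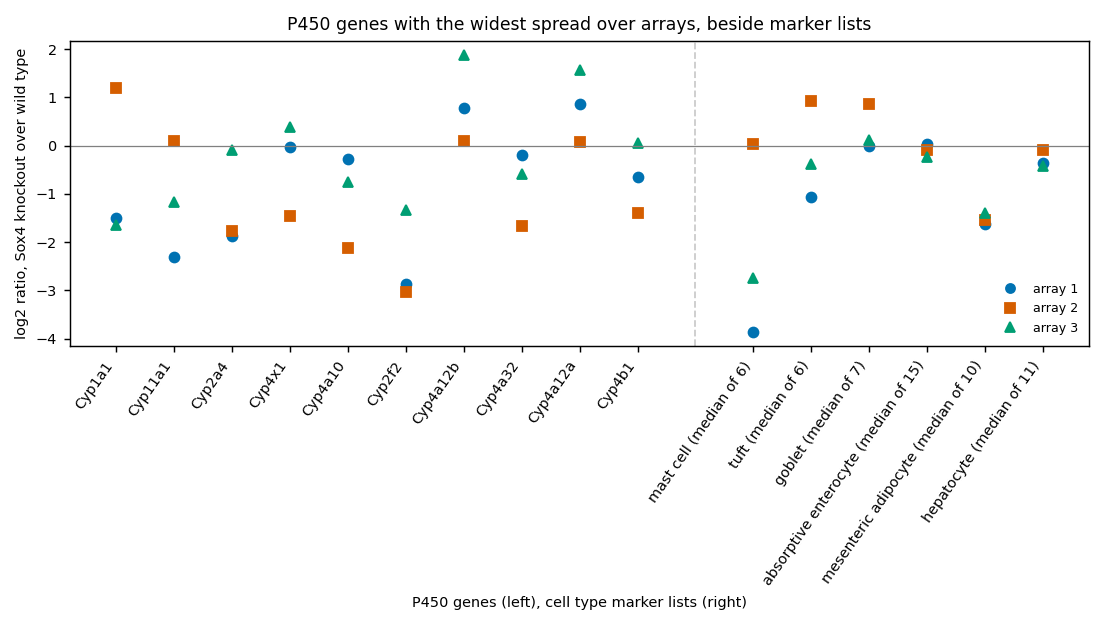
Log2 ratio of knockout over wild type (y axis) on arrays 1 to 3 for the 10 P450 genes with the highest SD over arrays (left) and for the medians of 6 cell type marker lists (right). Cyp1a1 and Cyp11a1 are low on arrays 1 and 3 and not on array 2. So are the medians of the mast cell (-3.86, 0.02 and -2.74) and tuft (-1.06, 0.93 and -0.37) lists, while the adipocyte median is close to equal on the arrays.

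The other families make or break down bile acids, steroid hormones and the active forms of vitamins A and D. None of their 18 genes passed, and the median was 0.08. Among 7 genes of bile acid and cholesterol metabolism the median was 0.17. Cyp7a1, the rate-limiting enzyme of bile acid synthesis, had 0.57, 0.20 and 0.06 (adjusted p = 0.274), and Cyp8b1, which makes cholic acid, had 0.34, 0.24 and 0.17 (adjusted p = 0.230). Cyp27a1, a mitochondrial sterol hydroxylase on 10 features, had -0.09, 0.17 and 0.11 (95% interval -0.23 to 0.36). Cyp51, the demethylase of lanosterol, had -0.32, 0.49 and 0.75, and Cyp7b1, an oxysterol hydroxylase, had -0.97, -0.24 and -0.23 (adjusted p = 0.178).

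Among 6 genes of vitamins A and D, the retinoic acid-degrading enzymes Cyp26a1 (0.10, 0.54 and 0.39) and Cyp26b1 (0.13, 0.81 and 0.24) were above 0 on every array (adjusted p = 0.181 and 0.208). Cyp27b1, which makes active vitamin D, had 0.21, 0.50 and 0.46 (adjusted p = 0.131), and Cyp24a1, which destroys it, had 0.29, -0.22 and 0.12. Cyp2r1 of family 2, the liver enzyme that starts vitamin D activation, had -0.57, -0.51 and -0.30 (adjusted p = 0.0990). Of 5 measured steroid hormone genes, Cyp11a1, which cuts the cholesterol side chain, stood out with -2.30, 0.10 and -1.18 (mean -1.13 ± 1.20, adjusted p = 0.179). Mast cell markers moved over the arrays in the same order, with a median of -3.86, 0.02 and -2.74 over 6 genes, from -4.20 (Fcer1a) to -0.74 (Kit) on array 1, and none of the 6 passed. Tuft cell markers (median -1.06, 0.93 and -0.37 over 6 genes) and smooth muscle markers (-0.54, 0.35 and -0.47 over 6 genes) had the same order. So did goblet (0.001, 0.86 and 0.11), Paneth (-0.21, 1.06 and 0.09) and macrophage markers (-0.003, 0.51 and 0.06). The order, lowest on array 1 and highest on array 2, was thus not particular to 1 cell type. Absorptive enterocyte and fat markers did not. The part of any of these cells in the Cyp11a1 ratio was not tested. Cyp17a1 had -0.12, -0.32 and -1.02 (adjusted p = 0.196).

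**Figure D4:**
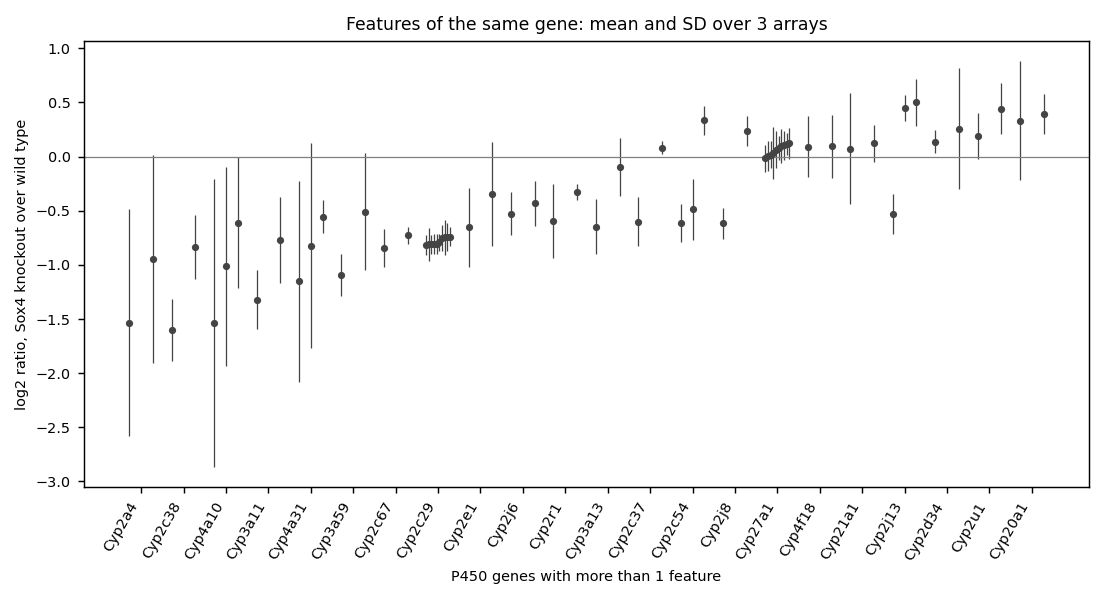
Mean log2 ratio of knockout over wild type (y axis) of each feature of the 22 P450 genes with more than 1 feature (x axis), with the SD over 3 arrays as error bars. The 10 features of Cyp2c29 overlap closely, while the features of Cyp2c37, Cyp2c54, Cyp2j13 and Cyp2j8 lie on both sides of 0.

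Of the 95 genes, 73 rested on 1 feature. Among the 22 with more, 17 had features of 1 sign and 5 had features on both sides of 0. For Cyp2j13 the feature means were -0.53, 0.45 and 0.50, and for Cyp2j8 -0.62 and 0.23. The array annotation names the Cyp2j8 feature at 0.23 Cyp2j8-ps, and the naming used here merged it with Cyp2j8. In these genes, and in Cyp2c54 and Cyp2c37, the features kept their signs over the arrays, so the mean of the gene hides a disagreement that is wider than its spread between arrays. The features of Cyp27a1 were all within 0.14 of each other around 0.

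Genes that work with P450 enzymes were measured in the same fit. Of 20 measured electron donors and haem genes, none passed (median -0.13). Por, the reductase that feeds electrons to all microsomal P450s, had -0.24, -0.27 and -0.25 (mean -0.26 ± 0.02, adjusted p = 0.208), and the electron carrier Cyb5a had -0.38, -0.39 and -0.39 (mean -0.39 ± 0.01, adjusted p = 0.112). Both were below 0 by nearly the same amount on every array. Of 24 measured receptors and regulators none passed (median -0.10), with Nr1i2 at 0.15 ± 0.05, Nr1i3 at -0.09 ± 0.11, Hnf4a at 0.05 ± 0.15, Ahr at -0.38 ± 0.15 and Ppara at -0.40 ± 0.31. Ppara had -0.05, -0.61 and -0.54. Of 14 targets of PXR and CAR outside the P450 family none passed, 11 were below 0 on every array (27.3% of all genes) and the median was -0.58. Por and Alas1 are also among the electron donors and haem genes, and Gsta1 is also among the aryl hydrocarbon receptor targets. The carboxylesterase Ces2a had -1.43 ± 0.41 and the glutathione transferase Gstm1 -0.88 ± 0.10 (adjusted p = 0.0543 for both). None of 17 PPARalpha targets outside the family passed (median -0.10), and their means ran from -1.66 (Acot1) to 0.75 (Fgf21). On every array 5 of them were below 0 and 3 above 0, where 27.3% and 23.2% of all genes were. Pdk4 (0.71, -2.11 and -0.48) and Angptl4 (0.47, -2.63 and -0.24) were lowest on array 2, as Cyp4a10 was. Acot2 (-0.62, -0.57 and -1.08) and Cd36 (-0.65, -1.26 and -1.36) were lowest on array 3. Among 21 other epoxide, eicosanoid and fatty acid enzymes none passed (median -0.37), with the epoxide hydrolase Ephx2, which acts on P450 products, at -0.51 ± 0.15. Among 18 retinoid genes none passed (median -0.15).

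Markers of other cells differed in the same RNA. Beside the counts given here, 27.3% of all genes were below 0 and 23.2% above 0 on every array. Markers of absorptive enterocytes, where most intestinal P450s are found, had array medians of 0.04, -0.08 and -0.24 over 15 genes, with none past the threshold, 3 below 0 and 4 above 0 on every array, and 10 with means below 0. Their means ran from -0.47 (Lct, the lactase) to 0.83 (Anpep, a brush border peptidase). Fat markers had -1.63, -1.54 and -1.39 over 10 genes, of which 5 fell and 9 were below 0 on every array. Hepatocyte markers had -0.36, -0.09 and -0.42 over 11 genes, of which Hp fell, 6 were below 0 and 1 above 0 on every array, with means from -1.70 (Hp) to 0.40 (Tat). Among them Alb had -1.61, -2.27 and -0.80, and Apoh had -1.61, 0.31 and -0.99, so the list did not share 1 order over the arrays. The part of these cells in the P450 ratios was not tested. Of the P450 genes that in mouse liver are female-biased, 8 were measured with a median of -0.67 and none passed. Their means ran from -1.24 (Cyp2a4) to 0.26 (Cyp2b13), with 5 genes below 0 on every array and 2 with means above 0. Of the 4 male-biased genes, Cyp7b1 and Cyp2d9 (-0.48 and -0.29) were below 0 and Cyp4a12a and Cyp4a12b above 0 on every array. Y-linked Eif2s3y and Uty were lower and Xist higher in the knockout RNA. An effect of sex and one of genotype therefore cannot be told apart in these or any other P450 genes.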

How the data were processed

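Values are the log2 ratios deposited by the authors, complete for 62976 features per array. How they were background-corrected and normalized, and their log base and direction, is not given in the sources used here. A base of 2 was taken as the usual unit, and under the natural logarithm each fold would be larger. Features were named through the platform annotation, updated by RefSeq accession, symbol or synonym (assembly GRCm38.p6, names and gene order only), and a gene's value on an array is the mean of its features. limma 3.58.1 (R 4.3.3) compared every gene's mean with 0 (intercept model, lmFit and eBayes, 2 residual and 3.51 prior degrees of freedom, two-sided), with Benjamini-Hochberg adjustment over all 20738 genes and a threshold of 0.05. No filter on low values was possible, so all 95 P450 genes were tested. The test was checked on simulated data. The P450 genes and the gene lists were chosen with earlier results of these data known, as were the alternatives. Named were Sox4, every P450 gene past the threshold, up to 6 per family group with the smallest p, up to 3 with the highest mean, and P450s of known main steps. Other P450 genes given with values, and lists' members beyond the 3 with the smallest p, receptors and redox partners, were chosen after their values were seen, as were the promoter letters and windows. The 3 genes of the smallest p in a list are not all printed. Python 3.11.15 with numpy 2.4.6 and pandas 2.3.3 wrote the tables, and matplotlib 3.10.9 drew the plots. The number of arrays limits the precision.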

Additional observations from a re-analysis of the deposited data

How the results depend on the processing

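No paired analysis was possible because all arrays form 1 group. The count of P450 genes past the threshold as lower was 3 with the median of features, the array's own symbols and a robust variance prior, 4 with arrays centred on their medians (adding Cyp3a41b, adjusted p = 0.0497), 2 with arrays scaled to equal spread (without Cyp2c38, adjusted p = 0.0509) and 4 with every feature tested on its own (adding Cyp3a11). Leaving out 1 array gave 0 to 1, and 4 to 66 over all genes in place of 68, with fewer arrays in the fit. No P450 gene passed as higher under any of these settings. The P450 median kept its sign, between -0.25 and -0.19, and was -0.22 with a further gene added by current symbol, an alternative chosen after seeing the data. The median of family 1 was -0.11 when array 3 was left out, -0.078 when array 2 was, and 0.42 when array 1 was. Of 45 named P450 genes, 4 changed sign when 1 array was left out, none of them past the threshold. Over these fits Cyp24a1 lay between -0.052 and 0.20, Cyp1b1 between -0.078 and 0.43, Cyp3a44 between -0.33 and 0.28, and Cyp1a2 between -0.11 and 0.42. No other cause of these changes was tested. Without intensities, features near background could not be set apart.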
